A study of Homo sapiens with 14 samples.

Results

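Loss of the transcription factor PAX8 was set directly against loss of the transcription factor SOX17 in the same ovarian cancer cells, to describe the genes that tell these losses apart. The comparison took the 2 libraries of the PAX8 knockdown (siPAX8) minus the 2 libraries of the SOX17 knockdown (siSOX17), 4 of the 14 libraries of the study, and every gene that passed a filter on low counts, 21032 of 58219. The cells were OVCAR4, an established human line of high-grade serous ovarian cancer. In each library 300000 cells were reverse transfected with small interfering RNA (siRNA) at 120 nM, refed at 24 hours and taken for total RNA at 72 hours. siPAX8 and siSOX17 each received 1 Dharmacon pool against the named gene, siDual received the pools against both genes, and siNT1 and siNT2 received different non-targeting pools. Libraries titled siMECOM and siWT1, 2 of each, enter the shared fit that estimates the spread but neither side of the comparison. The siRNA sequences and the share of each pool in siDual are not given in the sources used here, and 1 pool per target cannot separate loss of the target from other effects of that pool. The labels do not say if replicate libraries are separate transfections, so p-values here measure only the spread between libraries.

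PAX8 is a paired-domain factor of the developing thyroid, kidney and Mullerian duct, and serous ovarian tumours keep its expression, which pathologists use as a marker. SOX17 is a high-mobility-group factor that specifies endoderm and arterial endothelium and is also expressed in the Mullerian epithelium and its tumours. Both bind DNA by sequence, PAX8 through its paired domain and SOX17 through a domain that bends the helix at AACAAT-like sites, and they are known to be expressed together in serous ovarian cancer.

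Of the 21032 genes, 3698 (17.6%) were higher and 4155 (19.8%) lower in siPAX8 than in siSOX17, by edgeR's quasi-likelihood test at a Benjamini-Hochberg adjusted p under 0.05. At 2-fold or more, 996 (4.74%) were higher and 1051 (5%) lower, and at 4-fold or more 308 and 311. The median log2 difference over all genes was -0.01 and the median absolute log2 difference 0.32. In 8565 genes (40.7%) the 95% interval of the difference lay within 1.5-fold either way, so a large part of the transcriptome was held to a small difference. Of 7853 genes called, 7838 (99.8%) had both siPAX8 libraries on the same side of both siSOX17 libraries, as did 13969 (66.4%) of all genes tested. Protein-coding genes made up 14708 of the genes tested, with 3117 higher and 3259 lower.

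The libraries held 49803860 and 45765500 counts in siPAX8 and 43386482 and 41593921 in siSOX17. Between the libraries of a group the median absolute log2 difference was 0.11 in siPAX8 and 0.11 in siSOX17 over 14009 genes, of which 9 and 8 differed by more than 2-fold. Mitochondrially encoded genes took 10.3 and 9.27% of the counts in siPAX8 and 10.0 and 10.2% in siSOX17, above 5.34 to 6.13% in the 4 control libraries. The summed level of 12 epithelial markers, in CPM (counts scaled to library size), was 11064 and 9050 in siPAX8 and 13484 and 13389 in siSOX17. The controls held 5112 to 5913 CPM, and none of the 12 was at 0 in siPAX8 and siSOX17. Stromal markers summed to between 57.7 and 67.6 CPM in the 4 siPAX8 and siSOX17 libraries, with controls at 36.8 to 45.5 CPM. Leukocyte markers summed there to between 50.1 and 57.5 CPM, with controls at 23.4 to 28.2 CPM. In the 4 knockdown libraries 2 of 11 leukocyte markers were at 0 throughout. Ciliated cell markers summed to 39.1 and 32.8 CPM in siPAX8 and 13.9 and 13.3 CPM in siSOX17, with controls between them at 20.6 to 24.2 CPM. Neuronal markers summed to 52.9 and 53.6 CPM against 83.1 and 72.7 CPM, with controls at 57.2 to 78.5 CPM. The part of these markers in the results was not tested.

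The targeted transcripts stood on opposite sides of the comparison. PAX8 (ENSG00000125618.16) was at 32.8 and 38.3 CPM in siPAX8, at 266 and 273 CPM in siSOX17 and at 192 to 225 CPM in the controls. SOX17 (ENSG00000164736.5) was at 77.9 and 82.9 CPM in siPAX8, at 15.7 and 13.1 CPM in siSOX17 and at 104 to 119 CPM in the controls. The log2 difference, siPAX8 minus siSOX17, was -2.92 ± 0.09 (SE) for PAX8 (adjusted p = 2.16e-14) and 2.48 ± 0.12 for SOX17 (adjusted p = 5.86e-12), with n = 2 libraries a group. Neither loss lowered the other factor to the level of its own target: against the control mean the log2 fold change of PAX8 in siSOX17 was 0.40 ± 0.07, and that of SOX17 in siPAX8 was -0.46 ± 0.09. Reads of PAX8 and its antisense gene PAX8-AS1 cannot be told apart, because the strand used in counting is not given. MECOM, a zinc-finger factor amplified in many serous tumours, was at 97.8 and 97.6 CPM in siPAX8 and at 45.6 and 43.6 CPM in siSOX17, a log2 difference of 1.13 ± 0.15 (adjusted p = 7.16e-06). WT1 was near the limit of detection, from 0.149 to 0.267 CPM in the 4 libraries, and gave no call (0.31 ± 0.50, adjusted p = 0.678).

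At an average log2 CPM of 1 or more, the called protein-coding gene that stood furthest above its siSOX17 level was RHOC, a small GTPase of the actin cytoskeleton and cell motility (ENSG00000155366.16, chromosome 1, 112701106 to 112707434, minus strand). It was at 333 and 276 CPM in siPAX8, at 9.35 and 5.62 CPM in siSOX17 and at 161 to 192 CPM in the controls. Both losses moved it, in opposite directions from the controls, by 0.81 ± 0.11 in siPAX8 and by -4.53 ± 0.16 in siSOX17 on the log2 scale, and the direct log2 difference was 5.34 ± 0.17 (adjusted p = 4.66e-14). The predicted protein-coding gene AL603832.3 overlaps RHOC on the same strand and showed nearly the same difference (5.26 ± 0.16), and reads of these genes cannot be told apart. siDual, which received the SOX17 pool as well, held RHOC at 17.7 and 13.6 CPM.

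KRT6A, a keratin of stressed and wound-edge epithelium, was at 36.8 and 51.4 CPM in siPAX8 and at 0.696 and 1.72 CPM in siSOX17. Its log2 difference was 5.20 ± 0.27, and 5.97 without siSOX17 replicate 2. KRT6A has near-identical copies in KRT6B and KRT6C, so the split of reads among them is uncertain. KRT5, the partner keratin of basal epithelium, was at 7.37 and 3.81 CPM in siPAX8 and at 0.945 and 0.982 CPM in siSOX17 (2.54 ± 0.38, adjusted p = 3e-05). Among 12 measured markers of keratinocytes and squamous epithelium, 8 were higher and 0 lower in siPAX8. Their summed level went the other way, at 1688 and 1555 CPM in siPAX8 and 2100 and 1773 CPM in siSOX17. Both losses stood above the controls, at 348 to 518 CPM. In all 4 knockdown libraries 4 of 19 markers were at 0, and the part of squamous markers in other differences was not tested. In these bulk libraries fewer cells of a type and less RNA per cell cannot be told apart.

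Transcription factors and signalling scaffolds followed among the genes higher in siPAX8. SOX5, a SOX factor of cartilage and neural lineages, was at 7.62 and 7.55 CPM in siPAX8 and at 0.274 and 0.292 CPM in siSOX17 (4.73 ± 0.24). FLI1, an ETS factor of endothelium and blood, was at 19.1 and 18.7 CPM in siPAX8 and at 1.04 and 0.61 CPM in siSOX17 (4.5 ± 0.19). IQGAP2, a scaffold protein that binds calmodulin, was at 33.7 and 40.5 CPM in siPAX8 and at 1.39 and 1.7 CPM in siSOX17 (4.59 ± 0.16). In all 3 genes the siPAX8 libraries lay above the highest control library and the siSOX17 libraries far below the lowest.

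The other genes among the 12 of largest difference upward at this level of expression were signalling and membrane genes. CXCL5, a neutrophil chemokine, was at 30.8 and 79.4 CPM in siPAX8 and at 2.86 and 2.76 CPM in siSOX17. It was the least even of these genes between siPAX8 libraries, and its log2 difference of 4.29 ± 0.42 (adjusted p = 1.27e-07) became 3.46 without siPAX8 replicate 2. GBP5, an interferon-inducible GTPase, differed by 4.29 ± 0.23, the integrin subunit ITGA9 by 4.03 ± 0.30, and GAS1, a membrane co-receptor for Hedgehog ligands, by 3.79 ± 0.27. HEPHL1, a copper-dependent ferroxidase (3.67 ± 0.34), and FGF13, an intracellular regulator of sodium channels (3.66 ± 0.21), completed the 12 genes.

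KLHL14, a Kelch-family gene expressed with PAX8 in thyroid, stood furthest below its siSOX17 level under the same minimum of expression (ENSG00000197705.9, chromosome 18, 32672671 to 32773062, minus strand). It was at 0.658 and 0.334 CPM in siPAX8, at 18.7 and 15.7 CPM in siSOX17 and at 22.2 to 28.7 CPM in the controls. The siSOX17 libraries were also below every control library, and the log2 difference was -5.10 ± 0.18 (adjusted p = 1.86e-13). CRYAB, a small heat shock chaperone, was at 36.3 and 35.5 CPM in siPAX8, at 505 and 418 CPM in siSOX17 and at 255 to 277 CPM in the controls (-3.69 ± 0.13, adjusted p = 1.86e-13). RAPGEF3, the exchange factor EPAC that couples cyclic AMP to the GTPase RAP, was at 19.7 and 17.2 CPM in siPAX8, at 236 and 240.0 CPM in siSOX17 and at 65.2 to 84.5 CPM in the controls (-3.69 ± 0.11). For CRYAB and RAPGEF3 the controls lay between the losses.

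Several genes of this group are best known from muscle and extracellular matrix. ANKRD2, a stretch-responsive ankyrin repeat protein of muscle, was at 1.66 and 1.23 CPM in siPAX8 and at 27.4 and 22.5 CPM in siSOX17 (-4.11 ± 0.19). LMCD1, a LIM-domain cofactor that binds GATA6, was at 2.95 and 2.34 CPM in siPAX8 and at 41.3 and 45.6 CPM in siSOX17 (-4.03 ± 0.16). TLL2, a tolloid-like protease, differed by -3.89 ± 0.20. LRRN4, a leucine-rich repeat protein that is also a mesothelial marker, differed by -3.75 ± 0.18. Its siPAX8 libraries (1.36 and 1.67 CPM) overlapped the controls (1.41 to 1.93 CPM), while its siSOX17 libraries (19.2 and 21.6 CPM) were far above them. The other mesothelial markers tested gave no call. The 7 markers together summed to 85.0 and 54.8 CPM in siPAX8 and 120.4 and 96.7 CPM in siSOX17. Both losses stood below the controls in this sum, at 125.6 to 157.0 CPM.

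The calcium-binding mitochondrial protein EFHD1 (-3.46 ± 0.13), the kynurenine hydroxylase KMO (-3.35 ± 0.14), the opsin OPN3 (-3.05 ± 0.12) and MAB21L3 (-3.21 ± 0.22) were also lower in siPAX8. KMO and OPN3 overlap on opposite strands of chromosome 1, so their reads cannot be told apart. The potassium channel regulator KCNIP1 differed by -3.43 ± 0.44 (adjusted p = 4.24e-06). Its siPAX8 libraries stood at 7.07 and 2.54 CPM, and without siPAX8 replicate 1 the difference was -4.36.

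**Figure D1:**
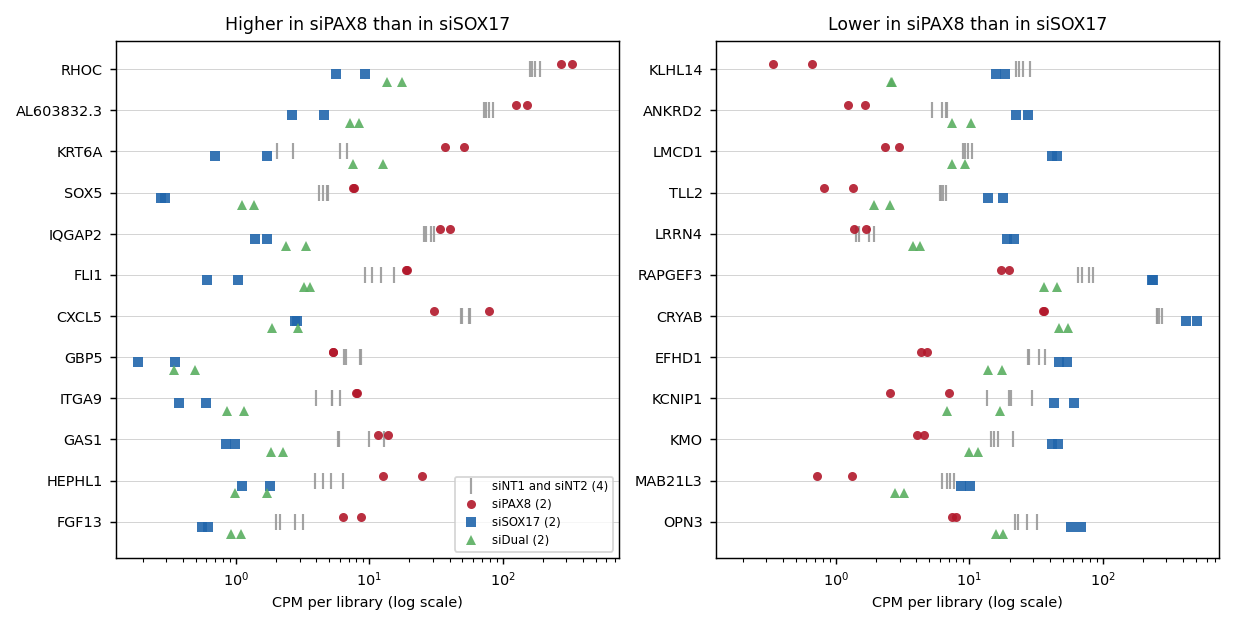
CPM on a log axis in each library of siPAX8 (circles), siSOX17 (squares), siDual (triangles) and the 4 control libraries (ticks) for the 12 genes furthest higher and the 12 furthest lower in siPAX8 than in siSOX17 among called protein-coding genes of mean log2 CPM at least 1 whose libraries do not overlap. The siPAX8 libraries of RHOC are at 333 and 276 CPM, and those of KLHL14 at 0.658 and 0.334 CPM.

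Because both targets bind DNA by sequence, the promoters of the first 2 genes of each direction that have an entry in RefSeq's promoter table (GRCh38.p14) are shown here. Each runs from 250 bases before to 50 bases after the gene's start, on the gene's own strand, and capitals mark a match to any motif searched. RHOC is at chr1:112707359-112707658 (minus strand), SOX5 at chr12:24562442-24562741 (minus strand), ANKRD2 at chr10:97572191-97572490 (plus strand) and LMCD1 at chr3:8501573-8501872 (plus strand).
RHOC: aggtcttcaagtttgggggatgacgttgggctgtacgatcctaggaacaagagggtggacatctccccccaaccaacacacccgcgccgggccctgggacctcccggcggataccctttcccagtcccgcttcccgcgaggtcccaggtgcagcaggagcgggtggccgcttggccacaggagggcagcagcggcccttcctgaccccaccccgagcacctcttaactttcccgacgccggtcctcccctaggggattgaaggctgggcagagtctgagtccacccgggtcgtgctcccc
SOX5: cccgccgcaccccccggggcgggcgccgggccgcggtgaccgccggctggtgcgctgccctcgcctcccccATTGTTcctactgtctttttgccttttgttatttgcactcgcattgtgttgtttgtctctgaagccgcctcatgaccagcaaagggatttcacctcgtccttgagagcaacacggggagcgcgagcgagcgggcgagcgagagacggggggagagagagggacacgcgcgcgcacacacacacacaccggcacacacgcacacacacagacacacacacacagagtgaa
ANKRD2: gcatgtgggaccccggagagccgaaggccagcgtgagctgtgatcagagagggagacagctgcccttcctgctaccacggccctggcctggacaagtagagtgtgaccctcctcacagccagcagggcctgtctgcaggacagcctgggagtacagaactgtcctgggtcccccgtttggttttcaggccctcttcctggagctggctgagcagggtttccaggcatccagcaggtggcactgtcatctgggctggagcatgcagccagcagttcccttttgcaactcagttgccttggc
LMCD1: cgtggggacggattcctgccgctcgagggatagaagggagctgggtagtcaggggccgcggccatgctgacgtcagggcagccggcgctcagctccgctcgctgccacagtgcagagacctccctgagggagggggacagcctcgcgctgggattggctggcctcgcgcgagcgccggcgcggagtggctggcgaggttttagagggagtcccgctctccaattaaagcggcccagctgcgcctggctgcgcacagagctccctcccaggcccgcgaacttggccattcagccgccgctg
The motifs were AACAAT for SOX factors, GTCACGC for the PAX paired domain, TTCCCGCC for E2F and ACGTG for hypoxia-inducible factors, each on both strands, and no motif holds another. The only match in these 4 promoters was ATTGTT, the other strand of AACAAT, 179 bases before the SOX5 start. A match is a description of letters, not of binding. AACAAT lay in 9.15% of 579 promoters of genes 2-fold or more higher in siPAX8, in 8.53% of 551 promoters of genes 2-fold or more lower and in 5.70% of all 12045 promoters of tested genes. For GTCACGC the shares were 2.59, 2.36 and 3.67%, for TTCCCGCC 3.11, 3.63 and 4.77%, and for ACGTG 17.8, 18.5 and 25.9%. For each motif the genes higher and the genes lower in siPAX8 had shares closer to each other than to the share over all genes.

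To place each difference relative to unperturbed cells, siPAX8 was set against siNT1 and siSOX17 against siNT2, so that these comparisons share no library with each other. In the first, 24.1% of the 21032 genes were higher and 23.1% lower, and in the second 24% were higher and 22.6% lower. Of the 7853 genes that told the losses apart, 374 were higher in siPAX8 and lower in siSOX17 than their control pools, and 333 were the reverse. A further 1084 were higher and 1118 lower in both losses but to unequal degree. In 771 genes siPAX8 alone was higher and in 867 siPAX8 alone was lower, while siSOX17 stayed without a call and within a log2 change of 0.25. For siSOX17 alone the counts were 826 higher and 764 lower. The remaining 1716 met none of these definitions. Among the 2047 genes at 2-fold or more, opposite movement took 224 and 193 genes, 10.9 and 9.43%, against 4.76 and 4.24% among all called genes. Opposite changes add up in the direct difference, so the larger share at 2-fold is partly built into the definition. The classes rest on the same knockdown libraries as the direct comparison and describe where the levels lay.

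**Figure D2:**
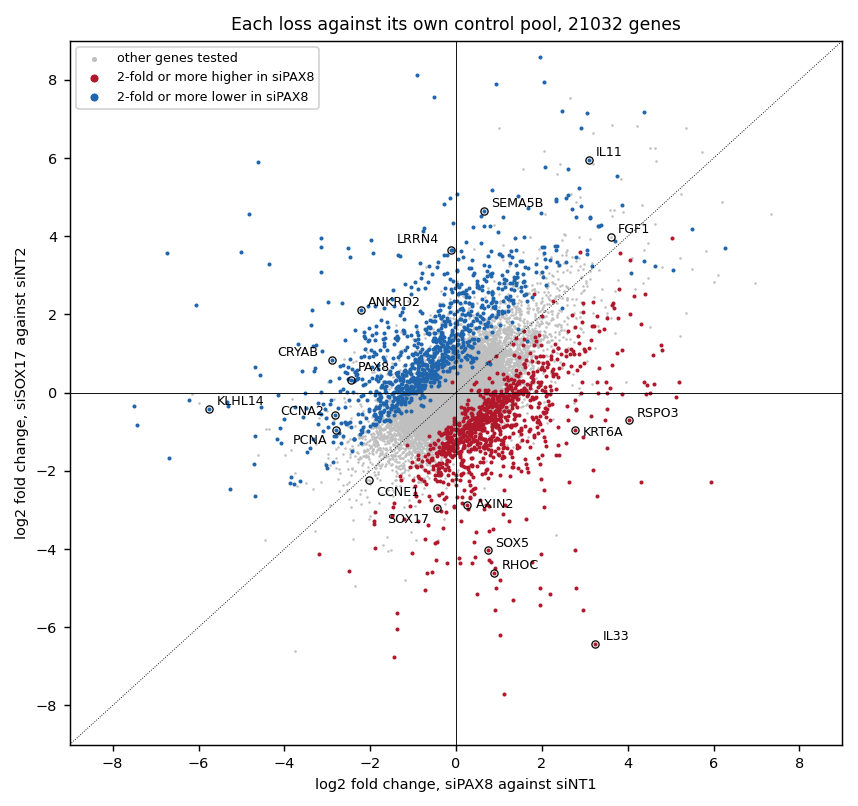
Log2 fold change of siPAX8 against siNT1 (x axis) and of siSOX17 against siNT2 (y axis) for 21032 genes, with genes called at 2-fold or more higher (red) or lower (blue) in siPAX8 than in siSOX17 and selected genes circled and named. PAX8 and KLHL14 lie left of the vertical axis, SOX17, RHOC and SOX5 below the horizontal one, and CCNE1 and FGF1 near the dotted line of equal change.

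Opposite movement joined genes of several functions. UNC5B, a netrin receptor, was at 24.7 and 21.1 CPM in siPAX8, at 2.76 and 1.99 CPM in siSOX17 and at 7.11 to 8.34 CPM in the controls, so the losses moved it away from the controls on either side. Its log2 difference was 3.26 ± 0.16 (adjusted p = 1.28e-11). The retinoic acid carrier CRABP2 behaved alike, at 238 and 183 CPM against 44.5 and 44.5 CPM with controls at 76.3 to 91.2 CPM (2.24 ± 0.11). In the reverse orientation, ITGB3, the integrin subunit beta-3, was at 24.1 and 26 CPM in siPAX8 and at 196 and 198 CPM in siSOX17 (-2.98 ± 0.10), with the controls at 123 to 167 CPM.

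Genes in the class of PAX8 loss alone, called against siNT1 in siPAX8 and held near siNT2 in siSOX17, included the decoy receptor IL1R2, at 11.5 and 9.63 CPM in siPAX8 and at 59.1 and 54.9 CPM in siSOX17, where the controls held 55.4 to 63.7 CPM. Its log2 difference was -2.43 ± 0.09 (adjusted p = 4.41e-13). SNU13, a small ribonucleoprotein subunit of the spliceosome (-1.87 ± 0.08), the cholesterol acyltransferase SOAT1 (-1.84 ± 0.14), FAM129A (-1.83 ± 0.11) and the receptor CD40 (-1.79 ± 0.12) showed the same pattern. Upward, ANKRD1, a stretch-induced cofactor and YAP target, was at 966 and 1029 CPM in siPAX8 and at 235 and 219.5 CPM in siSOX17, with controls at 219 to 325 CPM (2.13 ± 0.09), although against the mean of both control pools siSOX17 differed by -0.23 ± 0.08 (adjusted p = 0.0142). The chemokine CX3CL1 was at 43.8 and 45.9 CPM against 11.4 and 10.2 CPM, with controls at 11.5 to 13 CPM (2.06 ± 0.10). PALMD (2.55 ± 0.17), LURAP1L (2.54 ± 0.17) and the aldo-keto reductase AKR1C3 (1.82 ± 0.15) rose likewise, the last with close paralogs that may share its reads.

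The class of SOX17 loss alone took GREM1, a secreted BMP antagonist, at 10.2 and 11.5 CPM in siPAX8, 0.871 and 1.46 CPM in siSOX17 and 10.8 to 25.2 CPM in the controls (3.23 ± 0.22). GREM1 was near siNT1 in siPAX8, but against the mean of both control pools it was lower there too (-0.67 ± 0.14, adjusted p = 0.000545). The homeobox gene NKX1-2 (3.22 ± 0.23), the corepressor HR (3.15 ± 0.19) and the heparan sulfate sulfotransferase HS3ST3A1 (2.70 ± 0.21) were held near control in siPAX8 and were low in siSOX17. The matrix protease ADAMTS12 went the other way, at 1.44 and 1.43 CPM in siPAX8, 11.7 and 11.3 CPM in siSOX17 and 1.41 to 1.91 CPM in the controls (-3.0 ± 0.16). AHNAK, a giant scaffold beneath the plasma membrane, was at 549 and 529.6 CPM in siPAX8 and at 1825 and 2486 CPM in siSOX17, with controls at 493 to 594 CPM (-2.0 ± 0.14). The sphingosine-1-phosphate transporter SPNS2 (-2.22 ± 0.10, with siPAX8 at 0.25 ± 0.08 against the mean of both control pools), the cartilage protein CILP (-2.63 ± 0.23) and KRTAP2-3 (-1.91 ± 0.13) shared this pattern.

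Genes of known pathways were then read as gene lists, described by the number of measured members called in each direction and the median log2 difference, beside 17.6% higher, 19.8% lower and a median of -0.01 over all genes. No direction is read from a list median under 0.2 in size: of 18 such lists, 15 had a median that changed sign or moved by over 1.5 times on leaving out 1 library. The cell cycle gave the most one-sided counts. Of 39 G1/S and DNA replication genes, 0 were higher and 32 lower in siPAX8 than in siSOX17 (median -0.54), and of 36 G2/M and mitosis genes, 0 were higher and 34 lower (median -0.71). Both losses had these genes below control: the list medians against the control mean were -1.77 in siPAX8 and -1.18 in siSOX17 for G1/S, and -1.58 and -0.76 for G2/M, values that share their control libraries. Against separate pools, 39 of 39 G1/S genes were lower in each loss, and 36 and 35 of 36 G2/M genes.

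The replication clamp PCNA was at 22.7 and 22.3 CPM in siPAX8, at 74.6 and 76.3 CPM in siSOX17 and at 142 to 159 CPM in the controls. Its levels were stepped without overlap, with a direct log2 difference of -1.75 ± 0.08 (adjusted p = 2.13e-12). CCNA2, the cyclin of S phase and mitotic entry, was at 16.7 and 14.9 CPM in siPAX8, at 64.9 and 64.7 CPM in siSOX17 and at 92.7 to 115 CPM in the controls (-2.03 ± 0.10, adjusted p = 9.4e-12). The DNA polymerase alpha subunit POLA2 (-1.32 ± 0.08), the mitotic kinesin KIF20A (-1.34 ± 0.08) and FOXM1, the forkhead activator of mitotic genes (-1.34 ± 0.13), showed the same order. CCNE1, the cyclin that opens S phase, did not: it was at 28.6 and 32.4 CPM in siPAX8 and at 26.3 and 27.7 CPM in siSOX17, with controls at 124 to 127 CPM. Its log2 difference was 0.17 (95% interval -0.01 to 0.36, adjusted p = 0.125). CCND1, the cyclin of early G1, was at 62.6 and 66.7 CPM in siPAX8 and at 221 and 251 CPM in siSOX17, on either side of the controls at 95.9 to 185 CPM (-1.87 ± 0.09).

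**Figure D3:**
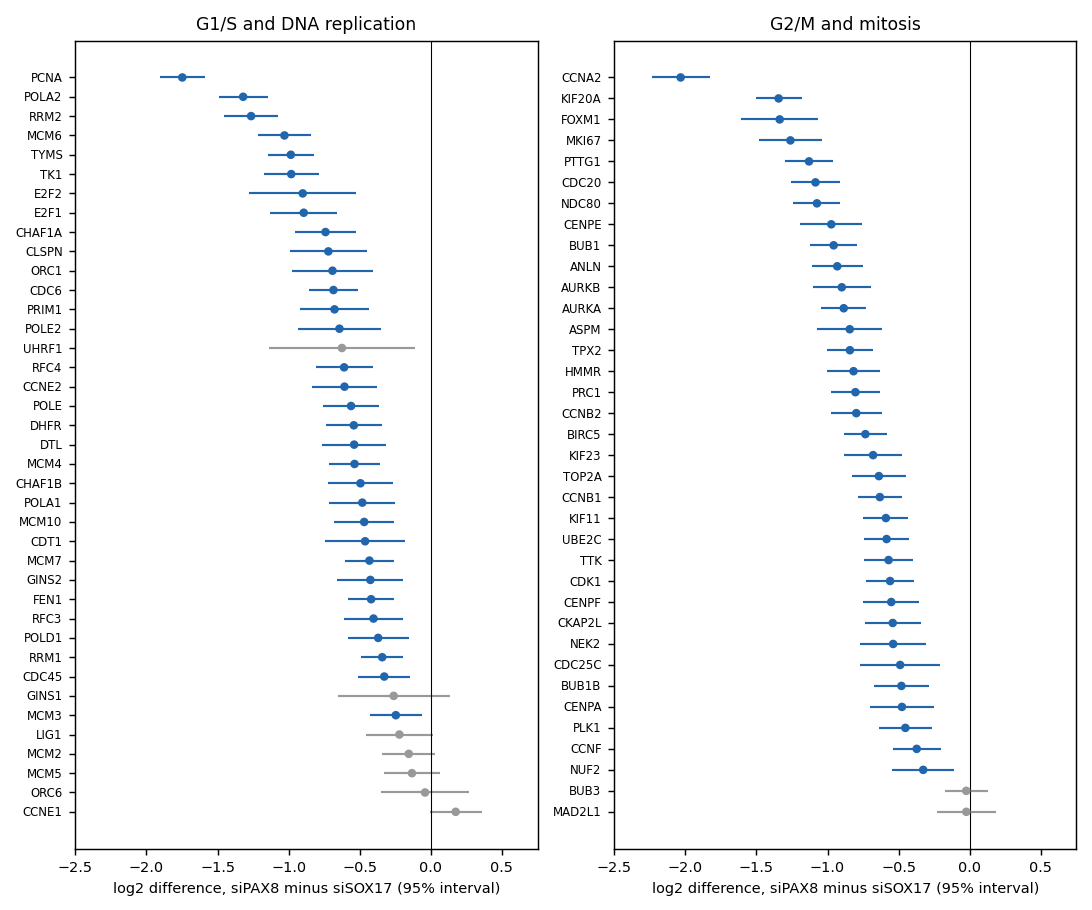
Log2 difference, siPAX8 minus siSOX17, with its 95% interval for 39 G1/S genes (left) and 36 G2/M genes (right), blue where called and grey where not. All called members lie left of 0, PCNA and CCNA2 furthest, and CCNE1 at 0.17 lies to the right.

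Inhibitors of cyclin-dependent kinases and p53 target genes were divided, with 10 higher and 10 lower of 28 (median -0.04). SESN2, a stress-induced inhibitor of mTORC1 signalling, was at 122 and 105 CPM in siPAX8 and 58.4 and 55.9 CPM in siSOX17 (0.99 ± 0.09), and the autophagy cofactor TP53INP1 differed by 1.15 ± 0.21 (adjusted p = 0.000288). The death receptor FAS was at 6.31 and 8.24 CPM against 17.8 and 18.6 CPM (-1.32 ± 0.15), with controls at 6.84 to 7.87 CPM, and the translesion polymerase POLH differed by -1.09 ± 0.10. FAS overlaps ACTA2 on the opposite strand of chromosome 10, so reads within the overlap cannot be told apart. Members of the BCL2 family were 5 higher and 3 lower of 15 (median 0.14), among them the activators BAD (0.56 ± 0.10), BIK (0.99 ± 0.21), BMF (-1.22 ± 0.18) and BOK (-0.43 ± 0.09). Ribosome biogenesis and MYC targets were 3 higher and 9 lower of 30 (median -0.07), with the processing factors RRP12 at -1.09 ± 0.10 and NOP56 at -0.54 ± 0.08. Ribosomal protein genes were level, with 1 higher and 0 lower of 37 and a median of -0.01.

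Glycolysis and hypoxia genes were mostly lower in siPAX8, 29 of 38, with 4 higher (median -0.43). Their medians against the control mean were 0.15 in siPAX8 and 0.54 in siSOX17. PKM, the pyruvate kinase, was at 1172 and 1088 CPM in siPAX8, at 3008 and 2924 CPM in siSOX17 and at 1932 to 2197 CPM in the controls (-1.39 ± 0.09, adjusted p = 5.93e-10). The losses lay on opposite sides of the controls. ADM, the hypoxia-induced peptide adrenomedullin, was at 21.1 and 27.3 CPM in siPAX8 and at 71 and 74.5 CPM in siSOX17, above controls at 10.3 to 12 CPM in both (-1.59 ± 0.11). HK1, the constitutive hexokinase (0.69 ± 0.09), and DDIT4, an mTORC1 inhibitor (0.72 ± 0.12), were higher in siPAX8.

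Cholesterol synthesis and uptake genes were the reverse, with 15 higher and 1 lower of 25 (median 0.30, and 0.17 in siPAX8 and -0.22 in siSOX17 against the control mean). INSIG1, the sterol sensor that retains SREBP in the endoplasmic reticulum, was at 87 and 76.5 CPM in siPAX8 and at 36.2 and 33.3 CPM in siSOX17 (1.23 ± 0.13, adjusted p = 2.35e-07). SREBF2, the transcription factor of the pathway, was at 317 and 309 CPM against 189 and 209 CPM, with controls at 281 to 332 CPM (0.65 ± 0.08). The differences were small beside those of the cell cycle genes, and 1 of the 25 reached 2-fold. Fatty acid synthesis genes were 4 higher and 0 lower of 14 (median 0.24), with the desaturase SCD at 0.51 ± 0.13 and the elongase ELOVL5 at 0.47 ± 0.10.

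Amino acid response genes, the ATF4 programme, were 12 higher and 2 lower of 24 (median 0.25). SLC7A11, the cystine importer, was at 14.4 and 18.3 CPM in siPAX8, at 6.47 and 5.33 CPM in siSOX17 and at 18.9 to 28.8 CPM in the controls, lower in both losses and more so in siSOX17 (1.47 ± 0.18, adjusted p = 2.55e-06). The stress cofactor NUPR1 differed by 1.00 ± 0.21. The arginine transporter SLC7A1 was at 64.8 and 70.5 CPM in siPAX8, at 219 and 259 CPM in siSOX17 and at 173 to 179.7 CPM in the controls (-1.82 ± 0.09), and ATF3 differed by -0.96 ± 0.18. Unfolded protein response genes were 8 higher and 4 lower of 20 (median 0.10). In that list SEL1L (1.00 ± 0.10) and HERPUD1 (0.82 ± 0.08), both of the degradation machinery of the endoplasmic reticulum, were higher, and the regulator XBP1 (-0.66 ± 0.08) and the translocon subunit SEC61B (-0.42 ± 0.08) lower. Glutathione and NRF2 target genes were 12 higher and 2 lower of 25 (median 0.24), SLC7A11 and AKR1C3 among the higher.

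Respiratory chain genes of the nuclear genome were 2 higher and 4 lower of 30 (median -0.02). The 13 mitochondrially encoded genes were 0 higher and 3 lower (median -0.26), with MT-ND6 at 1670 and 1645 CPM in siPAX8, 2229 and 2442 CPM in siSOX17 and 828 to 1071 CPM in the controls (-0.49 ± 0.12, adjusted p = 0.00294). Metallothionein genes, listed with the zinc exporter SLC30A1, were 1 higher and 4 lower of 9 (median -0.42, and -0.17 without siPAX8 replicate 2). The 1 higher was SLC30A1 (0.27), so no metallothionein itself was called higher. The zinc-binding MT2A was at 347 and 296 CPM in siPAX8 and at 781 and 859.6 CPM in siSOX17 (-1.35 ± 0.14), and MT1L differed by -1.21 ± 0.18, with near-identical family members that may share its reads. Carbonic anhydrases and acid-base transporters were 3 higher and 7 lower of 20 (median -0.02). CA2 was at 6.37 and 9.07 CPM in siPAX8, at 3.38 and 3.9 CPM in siSOX17 and at 62.6 to 78.4 CPM in the controls, low in both losses and lowest in siSOX17 (1.08 ± 0.16), while CA8 differed by -1.28 ± 0.26.

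**Figure D4:**
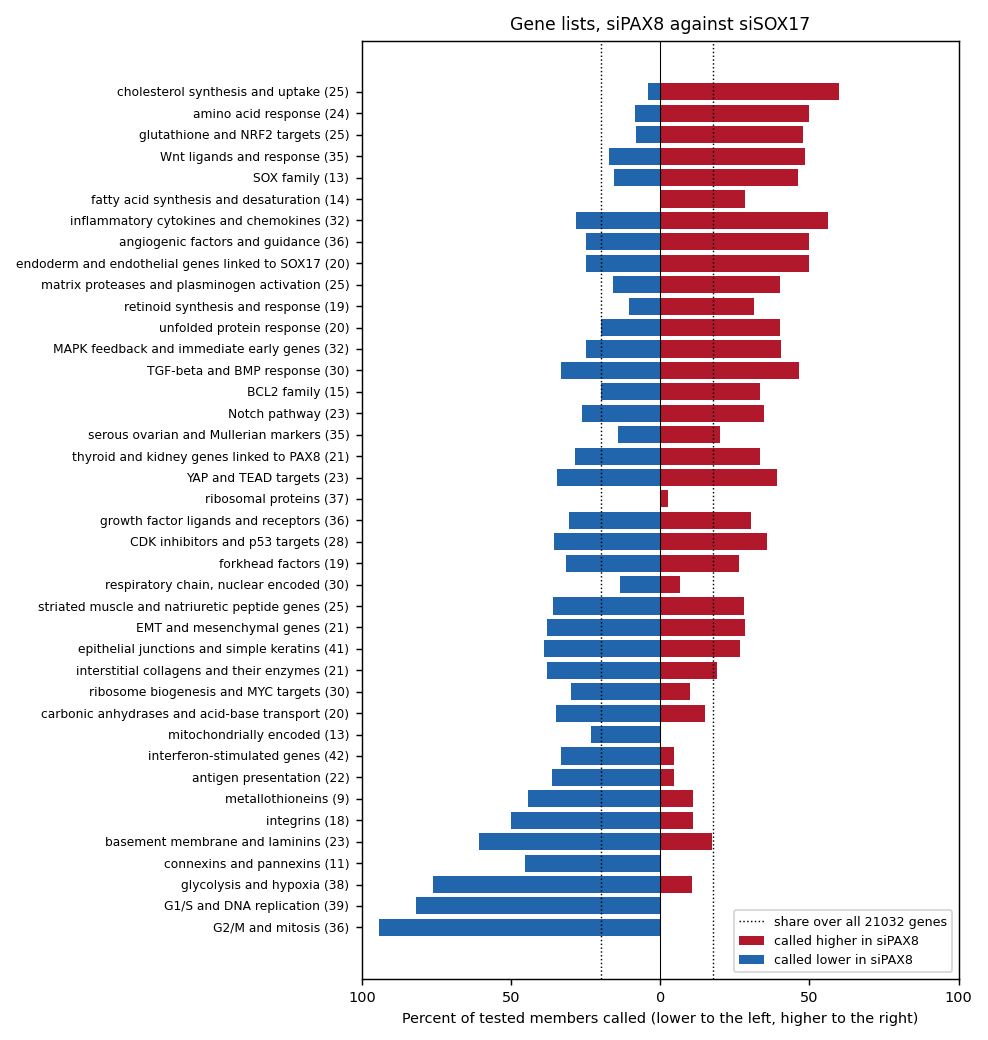
Percent of the measured members of each of 40 gene lists (their number in parentheses) called higher (right, red) or lower (left, blue) in siPAX8 than in siSOX17, ordered by the share higher minus the share lower, with dotted lines at 17.6 and 19.8%, the shares over all 21032 genes. The cell cycle and glycolysis lists lie far to the left and cholesterol synthesis to the right.

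Basement membrane genes were lower in siPAX8 in 14 of 23, with 4 higher (median -0.46, and 0.20 in siPAX8 and 0.75 in siSOX17 against the control mean). COL4A1, the basement membrane collagen, was at 543 and 648 CPM in siPAX8, at 1280 and 1157 CPM in siSOX17 and at 447 to 592 CPM in the controls (-1.03 ± 0.12, adjusted p = 1.35e-06). COL7A1, the anchoring fibril collagen, differed by -2.13 ± 0.38 from a low level. Higher in siPAX8 were the laminin subunit LAMA4 (1.71 ± 0.21) and the hemidesmosome collagen COL17A1, at 5.52 and 8.87 CPM against 2.41 and 2.89 CPM, with controls under 1 CPM, the highest at 0.821 (1.44 ± 0.21). Integrin genes were 2 higher and 9 lower of 18 (median -0.42). Of these the collagen receptor subunit ITGA2 was at 34 and 57.3 CPM in siPAX8 and 16.9 and 20.4 CPM in siSOX17 (1.29 ± 0.18), above controls at 3.77 to 6.1 CPM, and ITGB7 differed by -1.24 ± 0.21. Interstitial collagens and their enzymes were 4 higher and 8 lower of 21, with a median of -0.16 that was 0.01 without siPAX8 replicate 2 and -0.07 without siSOX17 replicate 1. COL8A1 (-1.16 ± 0.16) and the lysyl oxidase LOXL2 (-1.04 ± 0.13) were lower in siPAX8 and COL16A1 (1.18 ± 0.24) higher.

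Mesenchymal genes linked to epithelial-mesenchymal transition did not move as a block, with 6 higher and 8 lower of 21. Their median of 0.27 changed sign to -0.18 with a stricter filter on low counts and to -0.08 in a fit of the 4 libraries alone, and was 0.13, 0.12 and 0.09 without siPAX8 replicate 2, siSOX17 replicate 1 and siSOX17 replicate 2. FN1, fibronectin, was at 1.85 and 3.01 CPM in siPAX8, at 17 and 17.1 CPM in siSOX17 and at 1.44 to 2.02 CPM in the controls (-2.82 ± 0.21, adjusted p = 3.3e-09). ACTA2, smooth muscle actin, was at 8.45 and 5.39 CPM in siPAX8 and at 33.3 and 23.3 CPM in siSOX17 (-2.03 ± 0.19), above controls at 3.02 to 3.95 CPM in both. Reads where ACTA2 overlaps FAS, given above, cannot be told apart. LUM, the proteoglycan lumican and a stromal marker, was higher in siPAX8, at 2.63 and 1.49 CPM against 0.373 and 0.398 CPM (2.42 ± 0.43). Of 8 stromal markers measured 2 were higher and 1 lower, and their log2 differences ran from -4.25 to 4.19 (median 0.06). Epithelial junction and keratin genes were 11 higher and 16 lower of 41 (median -0.09). The epithelial splicing factor ESRP2 was at 14.9 and 16.9 CPM in siPAX8 and at 49.6 and 50.7 CPM in siSOX17, on either side of controls at 28 to 30 CPM (-1.66 ± 0.09), and the tight junction protein CLDN16 differed by -1.41 ± 0.09. KRT23 (2.00 ± 0.16) and the epithelial ETS factor EHF (1.11 ± 0.18) were higher in siPAX8. Connexins and pannexins were 0 higher and 5 lower of 11 (median -0.43), with GJB2 at 15.5 and 14.8 CPM in siPAX8, 48.9 and 56.6 CPM in siSOX17 and 146 to 169 CPM in the controls (-1.80 ± 0.10).

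Matrix proteases and plasminogen activation genes leaned the other way, with 10 higher and 4 lower of 25 (median 0.56, and 0.23 with the stricter filter). The gelatinase MMP2 was at 29 and 41.7 CPM in siPAX8, at 4.48 and 6.55 CPM in siSOX17 and at 6.11 to 10.6 CPM in the controls (2.68 ± 0.28, adjusted p = 3.23e-07). The membrane protease MMP15 was at 19.9 and 22 CPM in siPAX8 and 50.3 and 51.9 CPM in siSOX17, within the controls in the latter (-1.29 ± 0.10).

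Wnt ligands and response genes were 17 higher and 6 lower of 35, with a median of 0.60 and 11 and 2 members at 2-fold or more. Against the control mean the medians were 0.16 in siPAX8 and -0.44 in siSOX17. AXIN2, a feedback inhibitor and common readout of beta-catenin signalling, was at 7.98 and 8.78 CPM in siPAX8, at 0.871 and 1.11 CPM in siSOX17 and at 6.93 to 7.31 CPM in the controls (3.08 ± 0.16, adjusted p = 1.61e-11). RSPO3, a ligand that amplifies Wnt signals, was at 4.44 and 4.43 CPM in siPAX8, at 0.274 and 0.0265 CPM in siSOX17 and at 0.195 to 0.354 CPM in the controls (4.83 ± 0.40, adjusted p = 1.37e-08). The size of its difference rests on the siSOX17 libraries, at 7.24 without siSOX17 replicate 1 and 4.00 without siSOX17 replicate 2. AXIN2 and RSPO3 thus reached the same side by different routes, AXIN2 being low in siSOX17 and RSPO3 high in siPAX8. CCND1, listed here as a Wnt target and described above, went the other way, as did the receptor TNFRSF19 (-1.45 ± 0.21).

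Other signalling lists were more evenly divided. Notch pathway genes were 8 higher and 6 lower of 23 (median 0.37, and 0.23 in the 4 libraries alone). HEY2, a Notch target of arterial endothelium, had 78 counts in siPAX8 and 7 in siSOX17, which puts siSOX17 at 10.6% of siPAX8 (exact 95% interval 4.12 to 22.9%, counting error only). HES2 differed by 1.39 ± 0.27 and the Notch regulator DTX4 by -1.08 ± 0.09. TGF-beta and BMP genes were 14 higher and 10 lower of 30 (median 0.16), with GREM1 above and the receptor TGFBR3 (-0.83 ± 0.11) and the matrix protein TGFBI (-0.77 ± 0.10) below. TGFBI was at 111 and 135 CPM in siPAX8 and 207 and 212 CPM in siSOX17, well above controls at 23.9 to 31.8 CPM in both. MAPK feedback and immediate early genes were 13 higher and 8 lower of 32 (median 0.11). PHLDA2 was at 20.8 and 16.6 CPM in siPAX8, at 3.51 and 4.06 CPM in siSOX17 and at 5.22 to 6.07 CPM in the controls (2.31 ± 0.14), the pathway inhibitor SPRED3 differed by 2.05 ± 0.18, and the AP-1 subunit FOSL1 by -1.18 ± 0.14. YAP and TEAD targets were 9 higher and 8 lower of 23 (median 0.05), ANKRD1 and the receptor kinase AXL (0.92 ± 0.13) being higher and the kinase NUAK2 lower (-1.05 ± 0.11).

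Growth factor ligands and receptors were 11 higher and 11 lower of 36 (median 0.06). FGF18, a ligand of bone and ovarian tumours, was at 2.53 and 2.38 CPM in siPAX8, at 13.8 and 10.6 CPM in siSOX17 and at 59.4 to 76.5 CPM in the controls (-2.31 ± 0.14, adjusted p = 2.85e-10). FGF9, a ligand of gonad and Mullerian development, was at 1.25 and 1.56 CPM in siPAX8, at 0.124 and 0.212 CPM in siSOX17 and at 1.76 to 2.26 CPM in the controls (3.05 ± 0.36). These ligands were below control in both losses, FGF18 furthest in siPAX8 and FGF9 furthest in siSOX17. The insulin-like growth factor binding proteins were split, IGFBP3 at 269 and 297 CPM against 1272 and 914 CPM (-1.95 ± 0.19) and IGFBP5 at 37.4 and 32.5 CPM against 13.2 and 10.4 CPM (1.57 ± 0.23).

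Angiogenic factors and guidance genes were 18 higher and 9 lower of 36 (median 0.54). NRP2, the neuropilin that serves semaphorins and vascular endothelial growth factors, was at 11.1 and 14.7 CPM in siPAX8, at 1.97 and 1.57 CPM in siSOX17 and at 2.34 to 3.21 CPM in the controls (2.87 ± 0.17, adjusted p = 2.49e-10). UNC5B, given above, was on the same side. SEMA5B, a transmembrane semaphorin, was at 1.36 and 1.07 CPM in siPAX8, at 24.6 and 16.7 CPM in siSOX17 and at 0.606 to 0.966 CPM in the controls (-4.08 ± 0.28, adjusted p = 1.55e-09). The ephrin receptor EPHA4 differed by -1.70 ± 0.37.

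Inflammatory cytokines and chemokines were 18 higher and 9 lower of 32, with a median of 0.72 (0.46 without siPAX8 replicate 2) and 12 and 2 members at 2-fold or more. IL33, a nuclear alarmin of epithelium and endothelium, had 1929 counts in siPAX8 and 2 in siSOX17. Its level was 18.8 and 23.3 CPM in siPAX8 and 2.1 to 2.57 CPM in the controls, and siSOX17 stood at 0.122% of siPAX8 (exact 95% interval 0.0148 to 0.443%, counting error only). CXCL5, given above, followed IL33 in the size of its difference. IL11, a cytokine of the IL6 family, was above control in both losses but more so in siSOX17, at 21.5 and 22.4 CPM in siPAX8, 96.4 and 115 CPM in siSOX17 and 1.5 to 3.02 CPM in the controls (-2.27 ± 0.11, adjusted p = 1.61e-11). TNF was at 8.69 and 9.67 CPM in siPAX8, at 31.5 and 29.3 CPM in siSOX17 and at 12.6 to 17.1 CPM in the controls (-1.73 ± 0.16). More of the cytokine list was thus higher than lower in siPAX8, with IL11 and TNF among the exceptions.

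Interferon-stimulated genes were 2 higher and 14 lower of 42 (median -0.34, and -0.22 without siSOX17 replicate 1). Antigen presentation genes were 1 higher and 8 lower of 22, with a median of -0.21 that was -0.07 without siSOX17 replicate 1 and -0.34 without siSOX17 replicate 2. The peptide transporter TAP1 was at 61.4 and 67.7 CPM in siPAX8, at 110.0 and 114 CPM in siSOX17 and at 31.9 to 39.0 CPM in the controls (-0.79 ± 0.10). The interferon-induced gene IFI35 (-1.03 ± 0.11) and the immunoproteasome subunit PSMB9 (-0.97 ± 0.18) were on the same side. The members higher in siPAX8 were the guanylate-binding proteins GBP5 and GBP2 (1.28 ± 0.10) and, in antigen presentation, the tapasin gene TAPBP (0.61 ± 0.10). GBP5 was below control in both losses, at 5.31 and 5.30 CPM in siPAX8 and 0.348 and 0.186 CPM in siSOX17, with controls at 6.51 to 8.60 CPM. GBP2 was at 62.6 and 63.8 CPM in siPAX8 and at 28 and 24.1 CPM in siSOX17, where the controls held 20.4 to 28.1 CPM, and its paralogs may share its reads.

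Lineage genes were read last. Serous ovarian and Mullerian markers were 7 higher and 5 lower of 35 (median 0.05). PAX8, SOX17, CRABP2 and MECOM, given above, were among the 5 higher and 3 lower at 2-fold or more, and 23 members gave no call. Thyroid and kidney genes linked to PAX8 were 7 higher and 6 lower of 21 (median 0.04). KLHL14 and the kidney cadherin CDH16 were far lower in siPAX8, CDH16 at 0.212 and 0.29 CPM against 5.35 and 7.19 CPM, with controls at 1.06 to 1.97 CPM (-4.63 ± 0.33, adjusted p = 2.18e-09). The deiodinase DIO2 was higher in siPAX8, at 3.36 and 5.66 CPM against 0.398 and 0.398 CPM (3.49 ± 0.30), as was the thyroid forkhead factor FOXE1 (1.6 ± 0.32). The list therefore did not lie on the side of PAX8 as a whole.

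Endoderm and endothelial genes linked to SOX17 were 10 higher and 5 lower of 20 (median 0.79), that is, lower in siSOX17 more often than higher. The median was 0.53 with the stricter filter and 0.54 in the 4 libraries alone. FLI1 was one of these, and KDR, the vascular endothelial growth factor receptor, was at 1.38 and 1.18 CPM in siPAX8 and at 0.199 and 0.265 CPM in siSOX17, with controls at 0.2 to 0.731 CPM (2.46 ± 0.38, adjusted p = 4.28e-05). The arterial connexin GJA4 was lower in siPAX8 (-1.68 ± 0.35). Endothelial cell markers, 5 of 8 higher in siPAX8, summed to 27.9 and 27.0 CPM in siPAX8, 12.1 and 11.9 CPM in siSOX17 and 20.2 to 23.2 CPM in the controls. CDH5, KDR, TEK, TIE1 and ERG belong both to these markers and to the list linked to SOX17, so the markers are not separate from it. Their part in this list was not tested. SOX family genes other than SOX17 were 6 higher and 2 lower of 13 (median 0.53), with SOX5 and SOX8 (2.15 ± 0.43) highest. Forkhead factors were 5 higher and 6 lower of 19 (median 0.04), FOXE1 among the higher and FOXM1 and FOXO1 (-1.0 ± 0.12) among the lower.

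Striated muscle and natriuretic peptide genes were 7 higher and 9 lower of 25. Their median of -0.09 was -0.30 without siPAX8 replicate 1, 0.10 without siPAX8 replicate 2, 0.10 without siSOX17 replicate 1, -0.21 without siSOX17 replicate 2, 0.12 in the 4 libraries alone and -0.33 with the stricter filter. ANKRD1 and ANKRD2, which are related by sequence, lay on opposite sides (2.13 ± 0.09 and -4.11 ± 0.19). MYL2, a regulatory light chain of myosin, had 150 counts in siPAX8 and 5 in siSOX17, which puts siSOX17 at 3.94% of siPAX8 (exact 95% interval 1.26 to 9.39%, counting error only). Retinoid genes were 6 higher and 2 lower of 19 (median 0.08). CRABP2 and TGM2, a retinoid-induced transglutaminase, were the highest, TGM2 at 761 and 822 CPM in siPAX8, 149 and 219 CPM in siSOX17 and 59.4 to 124 CPM in the controls (2.10 ± 0.21, adjusted p = 1.54e-07).

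Some genes that both losses moved strongly did not separate them. Of 743 genes higher by 2-fold or more in both siPAX8 against siNT1 and siSOX17 against siNT2, 172 (23.1%) had a 95% interval of the direct difference within 1.5-fold either way. Of 457 genes lower in both, 102 (22.3%) did, and over all genes tested the share was 40.7%. The growth factor FGF1 was at 19.1 and 18.8 CPM in siPAX8, at 17.1 and 20.6 CPM in siSOX17 and at 1.14 to 1.63 CPM in the controls, with a direct log2 difference of 0.01 (95% interval -0.34 to 0.35). Its libraries overlapped between the losses and were far above every control. The membrane repair protein DYSF (-0.26, interval -0.47 to -0.04), the semaphorin SEMA3C (-0.15, -0.34 to 0.05), the checkpoint ligand PDCD1LG2 (-0.19, -0.50 to 0.12) and the receptor kinase CSF1R (-0.06, -0.35 to 0.23) were raised in both losses, with intervals inside the 1.5-fold margin. Among genes lowered in both, the kinase HUNK (-0.10, interval -0.53 to 0.33), CTTNBP2 (-0.19, -0.55 to 0.17), TFAP4 (-0.18, -0.57 to 0.21), DNAAF3 (-0.19, -0.48 to 0.09) and CCNE1 had intervals within the same margin.

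The siDual libraries, which enter neither side of the comparison, were placed beside the genes that differed by 2-fold or more. Of 2047 such genes, the siDual mean lay between the single losses in 838 (40.9%) nearer siPAX8 and in 902 (44.1%) nearer siSOX17, beyond siPAX8 in 155 (7.57%) and beyond siSOX17 in 152 (7.43%). The place differed between the classes. Where siPAX8 alone had lowered it, siDual was nearer siPAX8 in 87 of 123 genes (70.7%), and where siSOX17 alone had lowered it, nearer siSOX17 in 97 of 135 (71.9%). For genes raised by 1 loss alone the counts were 69 of 107 (64.5%) nearer siPAX8 and 77 of 128 (60.2%) nearer siSOX17. With siSOX17 at 0 and siPAX8 at 1, the median place of siDual was 0.59 and 0.58 for genes lowered and raised by siPAX8 alone. It was 0.36 and 0.44 for those lowered and raised by siSOX17 alone. For genes higher in both losses siDual was nearer siSOX17 in 64.3%, and for genes lower in both in 53.8%. It was nearer siSOX17 in 65.2% of opposite genes higher in siPAX8, and nearer siPAX8 in 64.2% of the reverse. Of the 12 leading genes higher in siPAX8, 11 lay nearer siSOX17 in siDual, and of the 12 lower, 10 lay nearer siPAX8. Most leading genes thus lay in siDual nearer the loss with the lower level, which need not be below control. LRRN4 was at 3.81 and 4.23 CPM in siDual, with controls at 1.41 to 1.93 CPM. KLHL14 was at 2.61 and 2.59 CPM, CRYAB at 54.8 and 46.7 CPM, SOX5 at 1.36 and 1.1 CPM and AXIN2 at 3.43 and 3.53 CPM in siDual. For IL11 siDual stood with siSOX17, at 89.2 and 92.9 CPM. These places are descriptions of group means with no test. PAX8 itself was at 52.8 and 50.6 CPM in siDual, above 32.8 and 38.3 CPM in siPAX8. SOX17 was at 15.9 and 17.7 CPM in siDual, against 15.7 and 13.1 CPM in siSOX17. The part of the smaller PAX8 loss of siDual in these places was not tested.

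**Figure D5:**
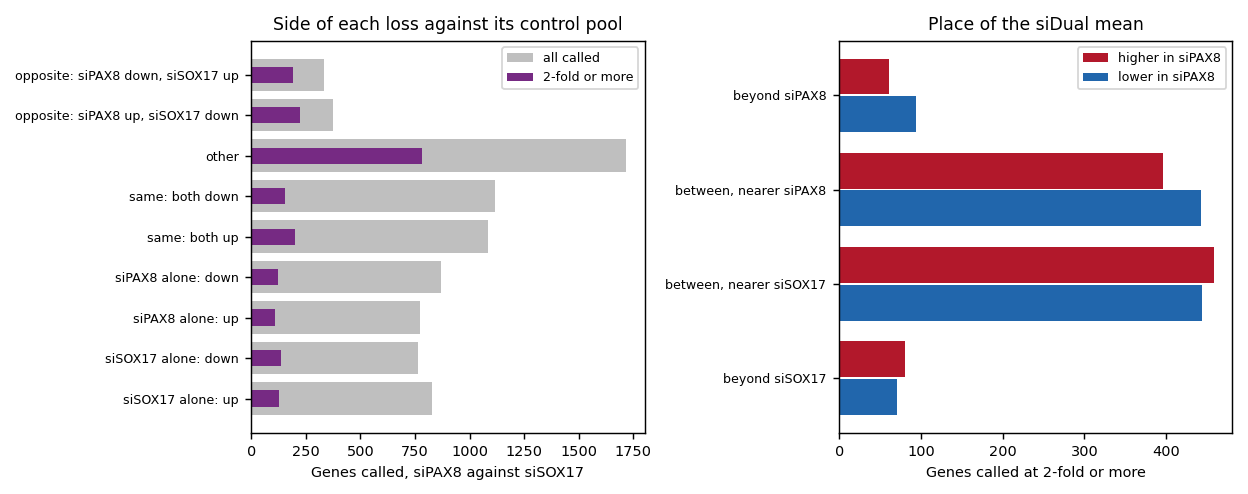
Left, number of genes called between siPAX8 and siSOX17 by the side of each loss against its control pool (grey, all called, and purple, 2-fold or more). Right, number of genes at 2-fold or more by the place of the siDual mean, with 838 between the losses nearer siPAX8 and 902 nearer siSOX17.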

How the data were processed

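The authors deposited whole-number read counts per gene for 14 libraries, not normalised, with gene length as a further column that was not used. STAR 2.5.1b, featureCounts 1.6.3 and build hg38 are named in the submitters' processing notes, and the annotation release, strand setting and filters are not given in the sources used here. Libraries were grouped by sample title. Of 58219 genes, 57881 matched GENCODE 29 by identifier, which gave types and positions.

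In R 4.3.3, edgeR 4.0.16 removed low genes with filterByExpr at its default settings (10 counts, 15 in total), leaving 21032. A quasi-likelihood model of all 14 libraries with a coefficient per group (TMM scaling, 7 residual degrees of freedom) gave log2 differences, standard errors and Benjamini-Hochberg adjusted p-values over all genes, called under 0.05. CPM use TMM-scaled library sizes, except the summed levels of cell type markers, which use the total counts of each library. The fit was also run on simulated counts of independent libraries, with a spread taken from the fit itself. That run cannot show how the replicate libraries of these data relate. Alternatives were DESeq2 1.42.0 and other filters, scalings, fits and thresholds.

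Genes named are the targets, the 12 largest called protein-coding differences in each direction (mean log2 CPM at least 1, libraries separated), the 6 largest per opposite or single-loss class, at most 2 per list and direction, and the 5 most changed genes per direction held close. Members and lists were chosen with earlier results of these data known. Some genes taken by this rule are not reported here.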

Additional observations from a re-analysis of the deposited data

How the results depend on the processing

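With glmTreat against a 1.5-fold minimum, 944 genes were called higher and 1015 lower in siPAX8, fewer because the test asks for a larger change. With a log2 margin of 0.5 in place of 0.25 around control, genes in no class numbered 1110. The other planned settings (DESeq2, its size factors, no or a stricter filter, the 4 libraries alone, no mitochondrially encoded genes, swapped control pools) kept these counts within 1.5 times. Leaving out 1 library in turn gave 2810 to 2963 genes higher and 3255 to 3404 lower. The replicate block gave 4086 higher and 4519 lower. DYSF, not called (adjusted p = 0.0566), passed with the replicate block (0.0245) and in the 4 libraries alone (0.0478), by edgeR. Same-number deviations of siPAX8 and siSOX17 correlated at 0.233 over 14160 genes, and 13 of 21 pairs of groups were over 0.1 (range -0.098 to 0.485). The labels give no shared origin and not every pair passed 0.1, so the numbers were not taken to pair the samples.

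Differences near 0 changed sign on leaving out a library, with the cause not tested: FGF1 ranged from -0.12 (without siSOX17 replicate 1) to 0.15 (without siSOX17 replicate 2), HUNK from -0.35 to 0.12 (without siPAX8 replicates 2 and 1), CSF1R from -0.16 to 0.030 (without siPAX8 replicates 1 and 2) and CTTNBP2 from -0.36 to 0.0078 (without siSOX17 replicates 2 and 1). The median of the mesenchymal list was -0.18 with the stricter filter and -0.084 in the 4 libraries alone. Of 186 genes taken by the naming rule, 10, 11, 11 and 13 lost their call without siPAX8 replicate 1, siPAX8 replicate 2, siSOX17 replicate 1 and siSOX17 replicate 2. Most of the 186 genes were named for a large difference. Among all 7853 genes called, a larger share lost the call in each of these fits, and some changed sign without siPAX8 replicate 1. Genes with few counts in a loss are limited by depth.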
